A study of Rattus norvegicus with 9 samples.

Results

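Interferon-stimulated genes and the genes of interferon signalling were followed in cultured rat fibroblasts (Fb) from 3 places. The 43 genes were chosen by name, as rows of the deposited matrices whose gene symbol is on a list of interferon receptors, signalling factors and induced genes, and all 43 of the 32883 genes listed were found once. Fibroblasts were grown from the epineurium, the outer sheath of the sciatic nerve (Fb-Epn), from the parenchyma inside that sheath (Fb-Par) and from abdominal skin (Fb-Skn), with 3 RNA-seq libraries of each. The rats were wild-type (WT) male Lewis rats aged 10 weeks; the nerves came from 2 rats and the skin from 1 other rat, and all cells had been passaged 1 time. With fewer than 3 rats per tissue, no type has 3 samples from separate animals, so p-values measure the spread between samples. Nerve and skin also differ in the rat of origin, and tissue and rat cannot be told apart. The protocols name no added interferon, so the levels are those of untreated cultures in medium with serum.

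Interferons are secreted proteins that warn neighbouring cells of infection. Type I interferons bind the receptor chains Ifnar1 and Ifnar2, interferon gamma binds Ifngr1 and Ifngr2, and both act through JAK kinases and STAT transcription factors. A complex that holds Stat2 and Irf9 binds the interferon-stimulated response element of target promoters, whereas the gamma-activated sequence is the usual element of interferon gamma targets. The induced genes encode proteins that block viral entry, translation or replication, and feedback proteins such as Usp18 that damp the receptor signal. Fibroblasts are a classical source of, and responder to, interferon beta.

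The levels followed several patterns rather than 1 shared pattern. The antiviral genes *Mx1*, *Mx2*, *Oasl* and *Dhx58* were highest in Fb-Epn, *Irf7*, *Gbp2* and *Dtx3l* were highest in Fb-Par, *Ifit3*, *Ifi44* and *Oas1a* were higher in both nerve types than in Fb-Skn, *Gbp5* was 6.54-fold lower in Fb-Epn and 4.84-fold lower in Fb-Par than in skin, and *Usp18* was 8.19-fold lower in Fb-Par than in Fb-Epn and 5.99-fold lower than in skin. Of these, *Mx1*, *Mx2*, *Oas1a* and *Oasl* held enough counts for a test only through Fb-Epn. The differences of *Mx2*, *Oasl* and *Irf7* between the nerve types lost their call without some single libraries. That of *Oas1a* between Fb-Par and Fb-Skn did too. *Ifitm3*, which encodes a membrane protein that blocks virus entry, was the most abundant of the 43 in all 9 libraries.

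Levels are given as TPM (transcript abundance scaled to the same total in each library), which are per length and can be compared between genes. Averaged over the 9 libraries, 9 of the 43 genes lay under 1 TPM, 18 between 1 and 10 TPM, 13 between 10 and 100 TPM and 3 at 100 TPM or more. The median was 5.84 TPM for the 39 genes that passed the filter on low counts, against 18.9 TPM for all 13273 genes that passed it. By mean TPM, 17 of the 43 genes peaked in Fb-Epn, 19 genes in Fb-Par and 7 genes in Fb-Skn. The same count was not made over all genes, and the 43 include genes almost without counts, such as *Ifit1* and *Oas2*. The summed TPM of the 43 genes was 2216 to 2257 in Fb-Epn, 2099 to 2153 in Fb-Par and 1626 to 1672 in Fb-Skn. *Ifitm3* alone made up 59.4% to 59.9%, 49.9% to 51.8% and 40.0% to 40.9% of these sums. Without *Ifitm3* and *Ifi27* the sums were 586 to 606, 608 to 637 and 513 to 516 TPM. On the TPM scale the median of all tested genes was itself 0.12 to 0.14 higher (log2) in the nerve types than in skin. The map of levels by library shows this mixture of a few abundant genes and many faint ones.

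**Figure D1:**
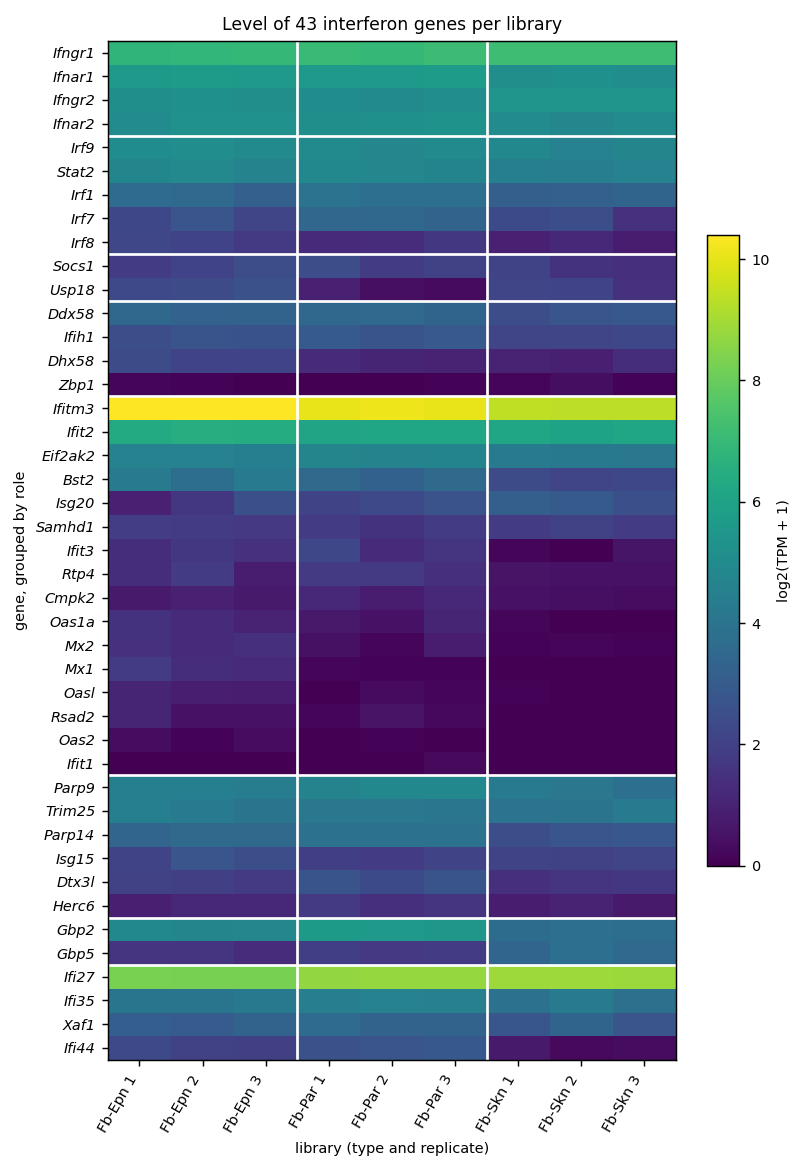
Level of the 43 interferon genes in the 9 libraries, as the colour scale log2(TPM + 1), with genes in rows grouped by role (white lines) and libraries in columns. *Ifitm3* and *Ifi27* are bright in every library, whereas *Mx1* and *Oasl* are brightest in the 3 Fb-Epn libraries.

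Differences between types were tested with edgeR's quasi-likelihood test on the counts, and a gene was called at a Benjamini-Hochberg adjusted p under 0.01 over all 13273 genes tested. Genes that also differed by more than 4-fold are termed DE genes. Total counts were 10084584 to 12310506 per library. Of the 43 genes, *Ifit1*, *Oas2*, *Rsad2* and *Zbp1* did not pass the filter, which asks for about 10 counts in at least 3 libraries. *Mx1*, *Mx2*, *Oas1a* and *Oasl* passed it only through Fb-Epn and *Rtp4* only through Fb-Par, so the counts below describe the genes tested and are read against the share of all genes called. The comparisons share libraries, and fewer cells of a type and less RNA per cell cannot be told apart in bulk RNA.

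In Fb-Epn against Fb-Skn, 20 of 39 genes were called (51.3%), where 43.9% of all genes were. Of the 39, 16 were higher in Fb-Epn and 4 lower (41.0% and 10.3%), where 23.0% and 20.9% of all genes were. DE genes numbered 7 (6 higher, 1 lower) or 17.9% of the 39, where 8.44% of all genes were. In Fb-Epn against Fb-Par, 12 of 39 were called (30.8%), where 38.8% of all genes were. Of the 39, 7 were higher in Fb-Epn and 5 lower (17.9% and 12.8%), where 20.2% and 18.6% of all genes were. DE genes numbered 3, all higher, or 7.69% of the 39, where 6.48% of all genes were. In Fb-Par against Fb-Skn, 23 of 39 were called (59.0%), where 45.6% of all genes were. Of the 39, 18 were higher in Fb-Par and 5 lower (46.2% and 12.8%), where 23.2% and 22.4% of all genes were. DE genes numbered 6 (4 higher, 2 lower) or 15.4% of the 39, where 8.54% of all genes were. The calls against Fb-Skn thus lay mostly on the nerve side. Between the nerve types the share called was lower than that of all genes at this threshold, but the difference was not tested. The tested interferon genes also had a lower median level than all genes tested (5.84 against 18.9 TPM), and the shares were not matched for level. Without the 5 genes kept through a single type, 16 of 34 (12 higher, 4 lower), 9 of 34 (4 higher, 5 lower) and 21 of 34 (16 higher, 5 lower) were called. The shares of all genes called were 43.9%, 38.8% and 45.6%. The share called in Fb-Epn against Fb-Skn thus lay nearer to that of all genes than with all 39. Outside these 5, the DE genes were *Ifit3*, *Ifi44* and *Gbp5* in Fb-Epn against Fb-Skn and *Usp18* in Fb-Epn against Fb-Par. In Fb-Par against Fb-Skn they were *Ifit3*, *Ifi44*, *Gbp5* and *Usp18*. The DE counts above thus rest in part on genes kept through a single type. The median log2 fold change was 0.37, -0.10 and 0.54 for the tested interferon genes, against -0.0028, -0.00018 and -0.012 for all genes, and the last was 0.39 with genes at 0 counts set at their lower bound. The Fb-Epn against Fb-Skn median was 0.24 without Fb-Skn replicate 3 and 0.25 over the 28 genes with at least 10 counts in every library.

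**Figure D2:**
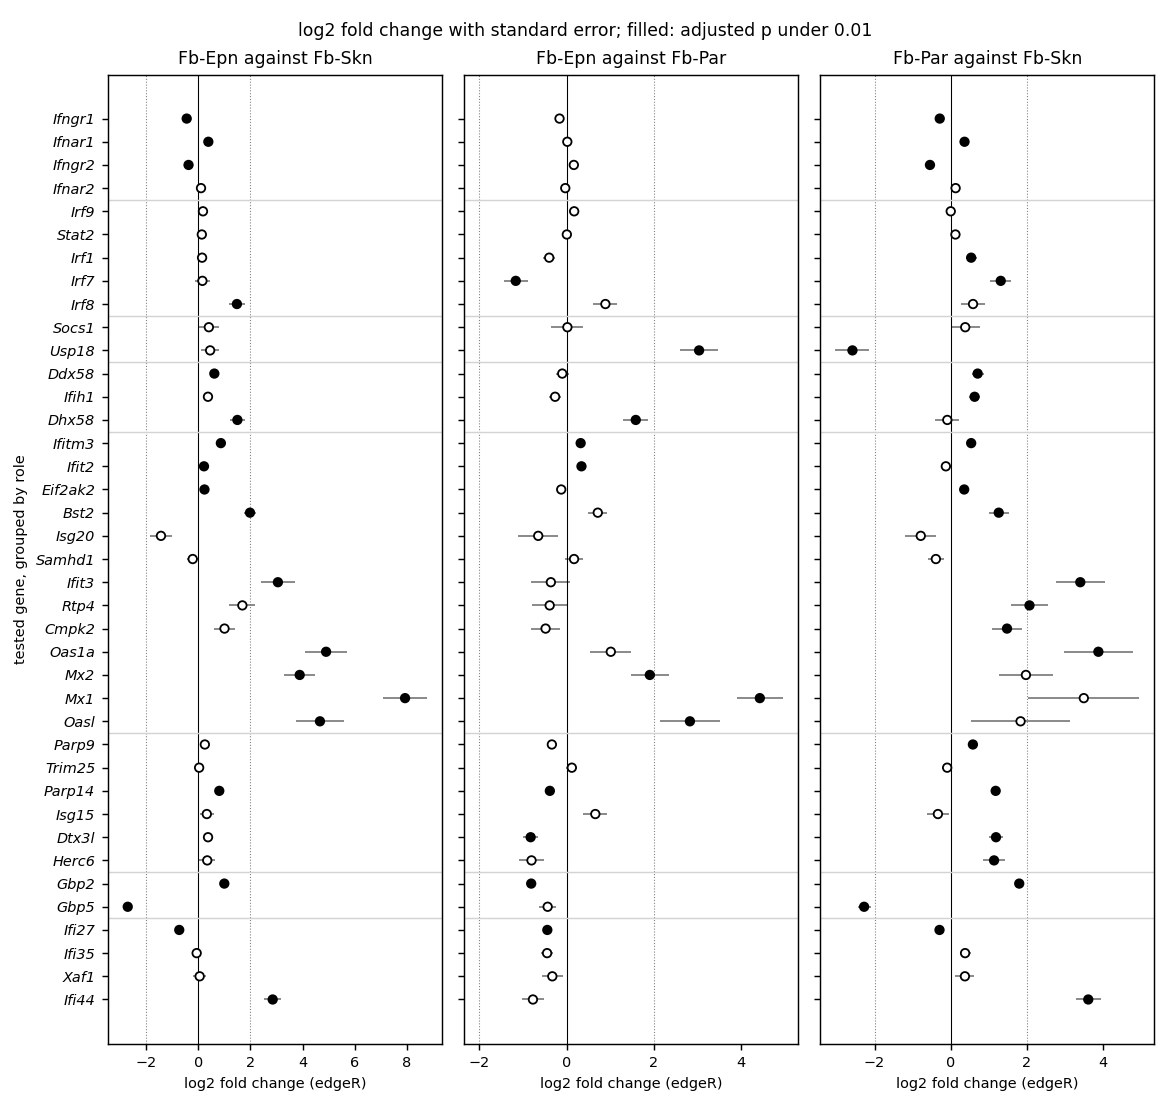
log2 fold change of the 39 tested genes in the 3 comparisons, from edgeR, with the standard error as a bar, genes grouped by role, filled points for an adjusted p under 0.01 and dotted lines at the 4-fold threshold. Of the points outside the dotted lines, most lie to the right, with *Gbp5* to the left in both comparisons against Fb-Skn and *Usp18* to the left in Fb-Par against Fb-Skn; the estimates of *Mx1*, *Oas1a* and *Oasl* against Fb-Skn rest on 0 or 1 count in the skin libraries and are no measure of size.

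Promoters are shown for genes of these patterns, since the response elements named above lie near the gene start. Each sequence is the RefSeq (GRCr8) window from 250 bases before to 50 after the gene start, 5′ to 3′ along the gene, and 33 of the 43 genes had an entry. Capitals mark matches to GAAANNGAA, the core of the interferon-stimulated response element, searched on both strands, and to TTCNNNGAA, the palindromic gamma-activated sequence. Matches may overlap and then form 1 run of capitals.
*Oas1a* and *Bst2* (highest mean in Fb-Epn, lowest in Fb-Skn), *Ifit3* and *Ifi44* (higher in both nerve types), *Gbp2* and *Gbp5* (neighbours that differ in direction) and *Ifitm3* (the most abundant) were chosen.
*Oas1a*, chr12:41330216-41330515, plus strand: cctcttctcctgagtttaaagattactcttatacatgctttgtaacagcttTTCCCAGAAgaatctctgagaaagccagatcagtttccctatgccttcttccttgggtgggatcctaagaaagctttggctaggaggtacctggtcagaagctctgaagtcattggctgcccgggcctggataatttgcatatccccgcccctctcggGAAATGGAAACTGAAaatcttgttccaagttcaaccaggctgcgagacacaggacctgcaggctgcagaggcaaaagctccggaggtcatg
*Bst2*, chr16:18254918-18255217, minus strand: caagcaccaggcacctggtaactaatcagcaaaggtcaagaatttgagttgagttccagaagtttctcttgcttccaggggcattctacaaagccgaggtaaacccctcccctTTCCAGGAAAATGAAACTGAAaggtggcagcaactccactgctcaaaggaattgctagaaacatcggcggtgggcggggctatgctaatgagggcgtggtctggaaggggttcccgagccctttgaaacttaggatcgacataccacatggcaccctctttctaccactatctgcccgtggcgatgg
*Ifit3*, chr1:241527076-241527375, plus strand: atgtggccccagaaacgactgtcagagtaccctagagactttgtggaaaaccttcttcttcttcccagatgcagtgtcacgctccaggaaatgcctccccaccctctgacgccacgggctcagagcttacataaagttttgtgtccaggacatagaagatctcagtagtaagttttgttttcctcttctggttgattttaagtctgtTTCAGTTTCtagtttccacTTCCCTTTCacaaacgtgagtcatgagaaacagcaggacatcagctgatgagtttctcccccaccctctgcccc
*Ifi44*, chr2:243303791-243304090, minus strand: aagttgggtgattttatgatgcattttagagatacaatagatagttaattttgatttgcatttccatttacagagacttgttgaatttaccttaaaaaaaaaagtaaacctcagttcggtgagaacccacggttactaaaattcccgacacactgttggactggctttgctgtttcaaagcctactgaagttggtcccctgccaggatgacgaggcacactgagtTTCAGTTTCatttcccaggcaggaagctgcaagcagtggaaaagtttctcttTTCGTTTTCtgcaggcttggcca
*Gbp2*, chr2:234005477-234005776, plus strand: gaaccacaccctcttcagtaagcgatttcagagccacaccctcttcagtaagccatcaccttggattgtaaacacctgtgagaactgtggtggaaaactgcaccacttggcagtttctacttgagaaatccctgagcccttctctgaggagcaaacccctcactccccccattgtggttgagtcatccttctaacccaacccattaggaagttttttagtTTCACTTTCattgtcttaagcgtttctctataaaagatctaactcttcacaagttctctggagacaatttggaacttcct
*Gbp5*, chr2:233910749-233911048, plus strand: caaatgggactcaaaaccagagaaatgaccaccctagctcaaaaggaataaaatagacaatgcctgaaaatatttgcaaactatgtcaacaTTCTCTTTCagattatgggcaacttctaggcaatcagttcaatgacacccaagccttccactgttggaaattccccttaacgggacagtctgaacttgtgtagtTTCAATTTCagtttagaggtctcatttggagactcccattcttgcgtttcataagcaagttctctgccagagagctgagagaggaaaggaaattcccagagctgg
*Ifitm3*, chr1:205541709-205542008, minus strand: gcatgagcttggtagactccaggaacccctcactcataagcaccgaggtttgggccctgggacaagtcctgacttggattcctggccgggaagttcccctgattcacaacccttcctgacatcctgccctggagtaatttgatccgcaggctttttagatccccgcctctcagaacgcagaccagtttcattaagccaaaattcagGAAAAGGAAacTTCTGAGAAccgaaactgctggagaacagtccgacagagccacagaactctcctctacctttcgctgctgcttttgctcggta

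In *Oas1a*, the matches at 41 and 35 bases before the start shared 3 bases, and a gamma-activated sequence began 199 bases before the start. In *Bst2*, 3 matches ran together between 137 and 117 bases before the start. *Ifit3* held matches 43 and 24 bases before the start, *Ifi44* held 1 match 25 bases before and 1 match 28 bases after it, and *Gbp2* held 1 match 30 bases before it. *Gbp5*, with the opposite pattern of levels, held matches 159 and 55 bases before the start. *Ifitm3* held both motifs, 44 and 33 bases before the start.

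Over all promoters with an entry, GAAANNGAA was present in 18 of 33 interferon genes (54.5%), where 9.71% of 33469 promoters held it, and TTCNNNGAA was present in 10 of 33 (30.3%), where 8.87% did. Both motifs were found in 5 of the 33 and neither in 10. By role, GAAANNGAA was found in 8 of 11 antiviral effectors, 2 of 2 guanylate-binding proteins, 3 of 4 other induced genes, 2 of 5 ubiquitin and ADP-ribosylation genes, 1 of 5 signalling and transcription factors and 0 of 4 receptors. TTCNNNGAA was found in 4 of 11 antiviral effectors, 3 of 5 signalling and transcription factors (*Irf1*, *Irf8* and *Irf9*), 1 of 5 ubiquitin and ADP-ribosylation genes, 1 of 4 receptors (*Ifnar2*) and the 1 feedback inhibitor with an entry, and in none of the guanylate-binding proteins, sensors and other induced genes with an entry. The letters of a match are a description of the sequence, and binding was not measured. *Mx1* held neither motif in this window, and GAAANNGAA was present in genes with their highest mean in each of the 3 types. The map of motif positions gives the distance of each match from the gene start.

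**Figure D3:**
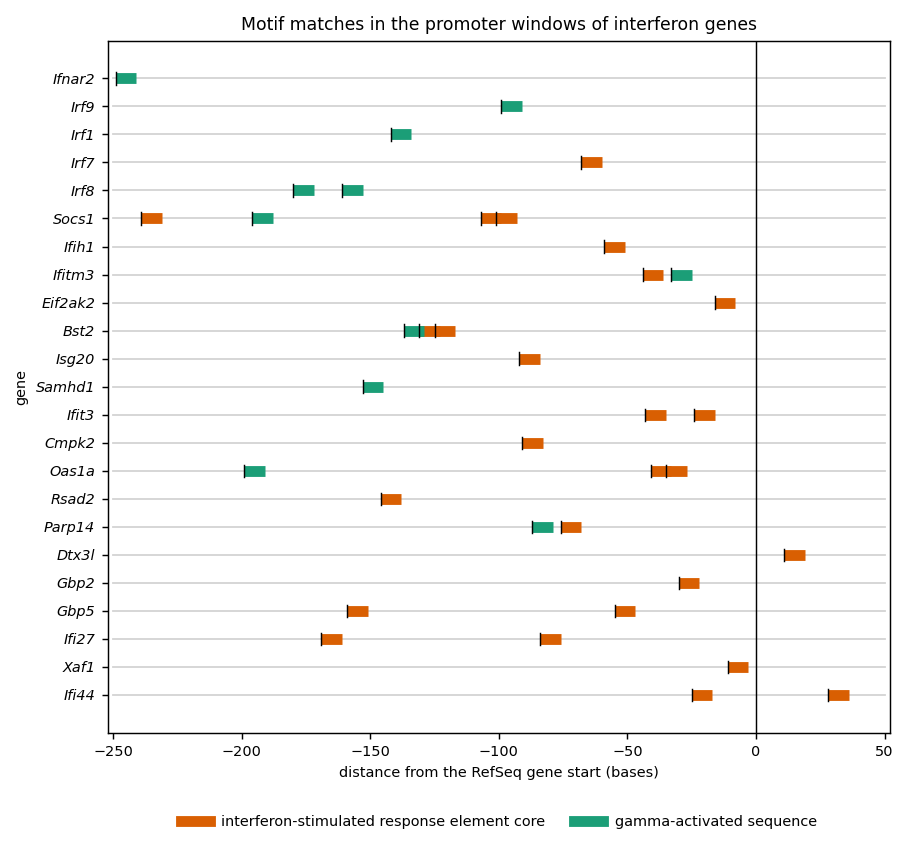
Position of the motif matches in the promoter windows of the 23 interferon genes with a match, as distance from the RefSeq gene start in bases (grey lines span the window, the vertical line is the start), with the response element core in orange, the gamma-activated sequence in green and a black tick at the lowest position of each match. Most matches lie before the start, and those of *Dtx3l* (11 bases after it) and the later one of *Ifi44* (28 bases after it) lie beyond it.

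The receptors were expressed by all 3 types and differed little. *Ifnar1*, a chain of the type I receptor, was at 48.7, 51.3 and 48.7 TPM in Fb-Epn, 47.4, 48.7 and 52 TPM in Fb-Par and 33.9, 36.1 and 33.5 TPM in Fb-Skn. Both nerve types thus lay above skin without overlap, with a log2 fold change of 0.38 ± 0.05 (SE, adjusted p = 2.2e-05) for Fb-Epn and 0.37 ± 0.05 (adjusted p = 3.3e-05) for Fb-Par. Its partner *Ifnar2* was at 31.6, 37.5 and 37.3 TPM in Fb-Epn, 34.8, 36.5 and 38.3 TPM in Fb-Par and 31.3, 27.5 and 31.2 TPM in Fb-Skn, and was not called in any comparison (log2 fold changes 0.10, -0.03 and 0.13, each ± 0.09). *Ifngr1*, the ligand-binding chain for interferon gamma, was at 109, 118 and 121 TPM in Fb-Epn, 130, 122 and 141 TPM in Fb-Par and 145, 142 and 144 TPM in Fb-Skn. Skin was the highest type for this chain, and the log2 fold change was -0.45 ± 0.06 (adjusted p = 7.9e-06) for Fb-Epn and -0.29 ± 0.05 (adjusted p = 4.7e-04) for Fb-Par against Fb-Skn. The latter call was lost on the TPM scale (limma, adjusted p = 0.060), where the median of all genes was itself 0.12 to 0.14 higher (log2) in Fb-Par. *Ifngr2*, the signalling chain, was at 35.6, 36.8 and 34.3 TPM in Fb-Epn, 32.2, 30.1 and 33.5 TPM in Fb-Par and 41.3, 41.8 and 42.6 TPM in Fb-Skn. It too was lower in both nerve types than in skin, with log2 fold changes of -0.38 ± 0.06 (adjusted p = 9.0e-05) and -0.54 ± 0.06 (adjusted p = 2.5e-06). No receptor was called between Fb-Epn and Fb-Par, where the adjusted p values were 0.82, 0.81, 0.025 and 0.035 for *Ifnar1*, *Ifnar2*, *Ifngr1* and *Ifngr2*. So the type I chain *Ifnar1* and the 2 gamma chains differed between nerve and skin in opposite directions. In rn6, the build of the files, *Ifnar2*, *Ifnar1* and *Ifngr2* lie in this order on the plus strand of chromosome 11, with *Il10rb* between the type I chains.

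The interferons themselves were hardly detected. Of 11 ligand genes listed, 10 were in the matrix, among them *Ifnb1*, *Ifng* and *Ifna4*. For 9 of these 10 no library held a count, which allows up to 3 counts per library, and *Ifnk* (interferon kappa) had 1 count in 1 Fb-Epn library. None could be tested.

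Of the signal transduction and transcription factors, *Irf7* and *Irf8* differed most. *Irf7*, the transcription factor that amplifies type I interferon production, was at 3.73, 5.62 and 3.49 TPM in Fb-Epn, 9.80, 10.4 and 9.04 TPM in Fb-Par and 4.00, 4.69 and 1.80 TPM in Fb-Skn. All 3 Fb-Par libraries lay above the other 6, by a log2 fold change of 1.32 ± 0.28 (adjusted p = 0.0010) over Fb-Skn, and Fb-Epn lay below Fb-Par by -1.16 ± 0.27 (adjusted p = 0.0025). The latter call was lost without Fb-Epn replicate 1 (adjusted p = 0.0149), Fb-Epn replicate 3 (0.0150) or Fb-Par replicate 2 (0.0102). *Irf7* overlaps *Phrf1* on the other strand by 65 bases in rn6, and the strand setting of the counting is not given in the sources used here; *Phrf1* had 528 to 805 counts per library and *Irf7* 17 to 106.

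*Irf8*, a factor best known from macrophages and dendritic cells, was at 3.63, 3.27 and 2.41 TPM in Fb-Epn, 1.34, 1.48 and 2.25 TPM in Fb-Par and 0.965, 1.25 and 0.804 TPM in Fb-Skn. Fb-Epn was the highest, by 1.48 ± 0.30 (log2, adjusted p = 6.6e-04) over Fb-Skn and by 0.89 ± 0.28 over Fb-Par, which was not called (adjusted p = 0.015). *Irf1*, which acts downstream of interferon gamma, was called in Fb-Par against Fb-Skn (0.54 ± 0.15, adjusted p = 0.0056), with 12.9 to 14.6 TPM against 7.80 to 9.17 TPM, and this call was lost without any of the Fb-Par libraries or without Fb-Skn replicate 1 or 2 (adjusted p = 0.0102 to 0.0255). *Stat2* and *Irf9*, the subunits of this type I complex on the list, were at 20.8 to 28.5 TPM and 23.4 to 33.5 TPM over the 9 libraries and were not called in any comparison. On the TPM scale, where the median of all genes was itself 0.12 to 0.14 higher (log2) in the nerve types than in skin, *Irf9* was called in Fb-Epn against Fb-Skn (limma, adjusted p = 0.0053).

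The feedback inhibitors behaved differently from each other. *Usp18*, which removes Isg15 from proteins and blocks the type I receptor at Ifnar2, was at 3.87, 4.13 and 5.06 TPM in Fb-Epn, 0.938, 0.361 and 0.229 TPM in Fb-Par and 3.57, 3.24 and 1.79 TPM in Fb-Skn. Every Fb-Par library lay below every library of the other types. The log2 fold change was 3.03 ± 0.43 for Fb-Epn against Fb-Par (8.19-fold, adjusted p = 3.7e-05) and -2.58 ± 0.45 for Fb-Par against Fb-Skn (5.99-fold lower, adjusted p = 1.9e-04). Fb-Epn and Fb-Skn did not overlap either but were not called apart (0.45 ± 0.34, adjusted p = 0.28). *Usp18* thus went against *Irf7*, the highest of whose levels were in Fb-Par. *Socs1*, an inhibitor of JAK kinases, ranged from 1.65 to 4.50 TPM with all types overlapping and was not called.

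Among the nucleic acid sensors, *Dhx58* (LGP2), a regulator of the other RNA helicases, was at 4.24, 3.28 and 3.22 TPM in Fb-Epn, 1.46, 1.12 and 0.990 TPM in Fb-Par and 0.977, 0.879 and 1.58 TPM in Fb-Skn. Fb-Epn was above Fb-Skn by 1.5 ± 0.29 (log2, adjusted p = 4.6e-04) and above Fb-Par by 1.58 ± 0.28 (adjusted p = 3.0e-04). The helicases *Ddx58* (RIG-I) and *Ifih1* (MDA5), which detect viral RNA, had another order, with both nerve types above skin. *Ddx58* was higher by 0.61 ± 0.16 in Fb-Epn (adjusted p = 0.0048) and by 0.71 ± 0.16 in Fb-Par (adjusted p = 0.0016). The Fb-Epn call was lost with DESeq2 (adjusted p = 0.0102), with a replicate block (0.0109) and without some single libraries. The Fb-Par call was lost without Fb-Skn replicate 1 (0.0102). *Ifih1* was higher by 0.63 ± 0.14 in Fb-Par (adjusted p = 0.0013) and by 0.37 ± 0.14 in Fb-Epn, which was not called (adjusted p = 0.037). *Zbp1*, a sensor of left-handed nucleic acids, had 3 counts over the Fb-Epn libraries, 1 in Fb-Par and 7 in Fb-Skn and was not tested.

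The antiviral effectors were the largest group. None of the 13 tested was called lower in Fb-Epn or Fb-Par than in Fb-Skn, where 20.9% and 22.4% of all genes were. In Fb-Epn against Fb-Skn 9 were higher, in Fb-Par against Fb-Skn 7, and in Fb-Epn against Fb-Par 5, where 23.0%, 23.2% and 20.2% of all genes were. The 13 include 5 effectors that passed the filter only through 1 nerve type (*Mx1*, *Mx2*, *Oas1a*, *Oasl* and *Rtp4*). These could hardly be called lower than skin. Of the 8 others 5, 5 and 2 were higher and 0 lower. *Isg20*, 1 of these 8, was however called lower in Fb-Epn than in Fb-Skn with DESeq2 (adjusted p = 0.0062) and without Fb-Epn replicate 3 (0.0015). *Mx1*, a dynamin-like GTPase that traps viral nucleocapsids, was at 2.58, 1.54 and 1.42 TPM in Fb-Epn (43, 29 and 24 counts) and at 0.110, 0.0636 and 0.0604 TPM in Fb-Par (2, 1 and 1 counts), and no Fb-Skn library held a count. Against the 3 counts that 0 allows over the group, Fb-Epn was at least 27.6-fold above Fb-Skn (adjusted p = 5.0e-06), and it was above Fb-Par by 4.43 ± 0.53 (log2, 21.5-fold, adjusted p = 1.8e-05). Fb-Par and Fb-Skn were not called apart (adjusted p = 0.058). *Mx2*, its paralog 120466 bases away on chromosome 11 (rn6), was at 1.77, 1.38 and 1.68 TPM in Fb-Epn, 0.374, 0.144 and 0.753 TPM in Fb-Par and 0.0627, 0.144 and 0.0712 TPM in Fb-Skn. The order of the types was that of *Mx1*, with 3.89 ± 0.59 over Fb-Skn (adjusted p = 5.5e-05) and 1.91 ± 0.44 over Fb-Par (adjusted p = 0.0024), the latter lost without Fb-Epn replicate 1 or 3 or Fb-Par replicate 1 or 2 (adjusted p = 0.0115, 0.0105, 0.0146 and 0.0118).

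The oligoadenylate synthetase genes, whose products activate RNase L on double-stranded RNA, followed. *Oas1a* was at 1.86, 1.39 and 1.07 TPM in Fb-Epn, 0.628, 0.415 and 1.08 TPM in Fb-Par and 0.0903, 0 and 0 TPM in Fb-Skn. The nerve types overlapped (adjusted p = 0.088), and skin held 1 count against 46 and 22, a ratio of 39.7 (exact 95% counting interval 6.77 to 1600) for Fb-Epn (adjusted p = 1.3e-04) and of 19.5 (3.16 to 806) for Fb-Par (adjusted p = 0.0023). The call for Fb-Par was lost without Fb-Par replicate 3 or Fb-Skn replicate 2 or 3 (adjusted p = 0.0115, 0.0113 and 0.0111). *Oasl*, a relative of these enzymes that binds RIG-I, was at 1.09, 0.833 and 0.788 TPM in Fb-Epn, 0, 0.230 and 0.146 TPM in Fb-Par and 0.0668, 0 and 0 TPM in Fb-Skn. Fb-Epn stood above both, with 39 counts against 1 in Fb-Skn (ratio 33.6, interval 5.69 to 1362, adjusted p = 5.3e-04) and a log2 fold change of 2.82 ± 0.68 over Fb-Par (adjusted p = 0.0031), the latter lost without Fb-Epn replicate 1, Fb-Par replicate 1 or Fb-Par replicate 3 (adjusted p = 0.0151, 0.0161 and 0.0124). *Oas2*, not tested, had 9, 1 and 0 counts. *Rsad2* (viperin), which makes a chain-terminating nucleotide, had 37, 13 and 0 counts, at least 10.6-fold above Fb-Skn for Fb-Epn and at least 3.85-fold for Fb-Par, without a test. Its divergent neighbour *Cmpk2*, 14085 bases away, was at 0.666 to 0.963 TPM in Fb-Epn, 0.714 to 1.28 TPM in Fb-Par and 0.271 to 0.430 TPM in Fb-Skn and was called in Fb-Par against Fb-Skn (1.48 ± 0.39, adjusted p = 0.0044). That call was lost with a replicate block (adjusted p = 0.0109) and without some single libraries. These counting intervals cover counting error alone.

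The summed markers of macrophages and other leukocytes were highest in Fb-Epn and lowest in Fb-Skn. By mean TPM *Mx1*, *Mx2*, *Oas1a*, *Oasl*, *Irf8*, *Bst2* and *Ifitm3*, among others, had this order. The 43 genes were divided, however. Skin was the highest type for 7 of them and Fb-Par for 19, among these *Irf7*, *Gbp2* and *Dtx3l*, so these genes had another order. Of the 17 highest in Fb-Epn, *Usp18* and *Isg15* were lowest in Fb-Par. The summed level of the 9 leukocyte markers in the matrix was 319 to 359 TPM in Fb-Epn. In Fb-Par it was 79.4 to 82.6 TPM, and in Fb-Skn 25.5 to 26.1 TPM. All 8 markers that could be tested were higher in Fb-Epn than in both other types, whereas the T cell marker *Cd3e* was at 0 in all libraries. *Cd68* was at 147 to 161, 24.8 to 29.5 and 6.55 to 8.58 TPM in the 3 types. *Cd163* had another order, with means of 8.81 TPM in Fb-Epn, 0.0713 TPM in Fb-Par and 0.279 TPM in Fb-Skn. The 6 Schwann cell markers used summed to 156 to 170.5, 191 to 199 and 9.82 to 12.6 TPM, with *Sox10*, *Erbb3* and *Cdh19* at 0 in Fb-Skn, and the endothelial markers to 11 to 11.2, 9.77 to 10.9 and 1.00 to 1.56 TPM, with *Cdh5* and *Emcn* at 0 in Fb-Skn. Fibroblast markers such as *Col1a1*, *Dcn* and *Thy1* were abundant throughout, at a sum of 25786 to 26208, 23288 to 23709 and 34760 to 35709 TPM. The part of these other cells in the interferon results was not tested.

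*Ifit3*, which with its relatives binds viral RNA, was at 1.56, 2.24 and 1.83 TPM in Fb-Epn, 3.75, 1.44 and 2.06 TPM in Fb-Par and 0.0897, 0 and 0.510 TPM in Fb-Skn. Nerve and skin did not overlap, whereas the nerve types did. The log2 fold change was 3.05 ± 0.67 (8.30-fold, adjusted p = 0.0013) for Fb-Epn and 3.41 ± 0.65 (10.7-fold, adjusted p = 4.2e-04) for Fb-Par against Fb-Skn. Its neighbour *Ifit2*, 5507 bases away on chromosome 1 (rn6), was far more abundant and nearly even, at 82.2 to 89.2 TPM in Fb-Epn, 66.0 to 69.9 TPM in Fb-Par and 63.8 to 69.1 TPM in Fb-Skn. Its level in Fb-Epn was above that in Fb-Par (0.34 ± 0.05, adjusted p = 4.5e-05) and that in Fb-Skn (0.22 ± 0.05, adjusted p = 0.0019, lost without Fb-Epn replicate 2 at 0.0114 or Fb-Skn replicate 2 at 0.0116). *Ifit1*, in the same cluster, had 2 counts in all, both in Fb-Par, and was not tested. Reads of the *Ifit*, *Oas*, *Mx*, *Gbp* and *Ifitm* families can be split between similar copies, so single members are uncertain to that extent.

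The other effectors were graded. *Ifitm3* was at 1351, 1342 and 1322 TPM in Fb-Epn, 1060, 1115 and 1060 TPM in Fb-Par and 683, 667 and 650 TPM in Fb-Skn. The 3 types were fully separated, by 0.86 ± 0.04 (adjusted p = 6.2e-11) and 0.54 ± 0.04 (adjusted p = 1.2e-08) for Fb-Epn and Fb-Par against Fb-Skn and by 0.32 ± 0.04 (adjusted p = 3.4e-06) between the nerve types. *Bst2* (tetherin), which holds budding virions at the membrane, was at 19.0, 12.4 and 18.8 TPM in Fb-Epn, 11.1, 8.31 and 11.3 TPM in Fb-Par and 4.17, 3.52 and 3.74 TPM in Fb-Skn. It shared this order, with 1.98 ± 0.25 (adjusted p = 9.0e-06) and 1.27 ± 0.26 (adjusted p = 7.2e-04) over Fb-Skn and 0.71 ± 0.22 between the nerve types, which was not called (adjusted p = 0.015). *Rtp4*, a receptor chaperone induced by type I interferon, was at 1.55, 2.56 and 0.715 TPM in Fb-Epn, 2.36, 2.41 and 1.66 TPM in Fb-Par and 0.476, 0.436 and 0.432 TPM in Fb-Skn. Both nerve types lay above skin, but the spread within Fb-Epn was wide, and it was called in Fb-Par against Fb-Skn (2.08 ± 0.49, adjusted p = 0.0021) and not in Fb-Epn against Fb-Skn (1.69 ± 0.50, adjusted p = 0.0104). *Eif2ak2* (PKR), a kinase that stops translation, was higher in Fb-Epn (0.23 ± 0.06, adjusted p = 0.0064) and Fb-Par (0.36 ± 0.06, adjusted p = 2.5e-04) than in Fb-Skn. Its Fb-Epn call was lost with DESeq2 (adjusted p = 0.0163) and without some single libraries. *Isg20*, an exonuclease, was at 0.912, 2.22 and 4.73 TPM in Fb-Epn and at 4.78 to 7.78 TPM in Fb-Skn and was not called (-1.43 ± 0.44, adjusted p = 0.0121), and *Samhd1*, which depletes nucleotides, was at 1.87 to 3.01 TPM throughout and was not called either.

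**Figure D4:**
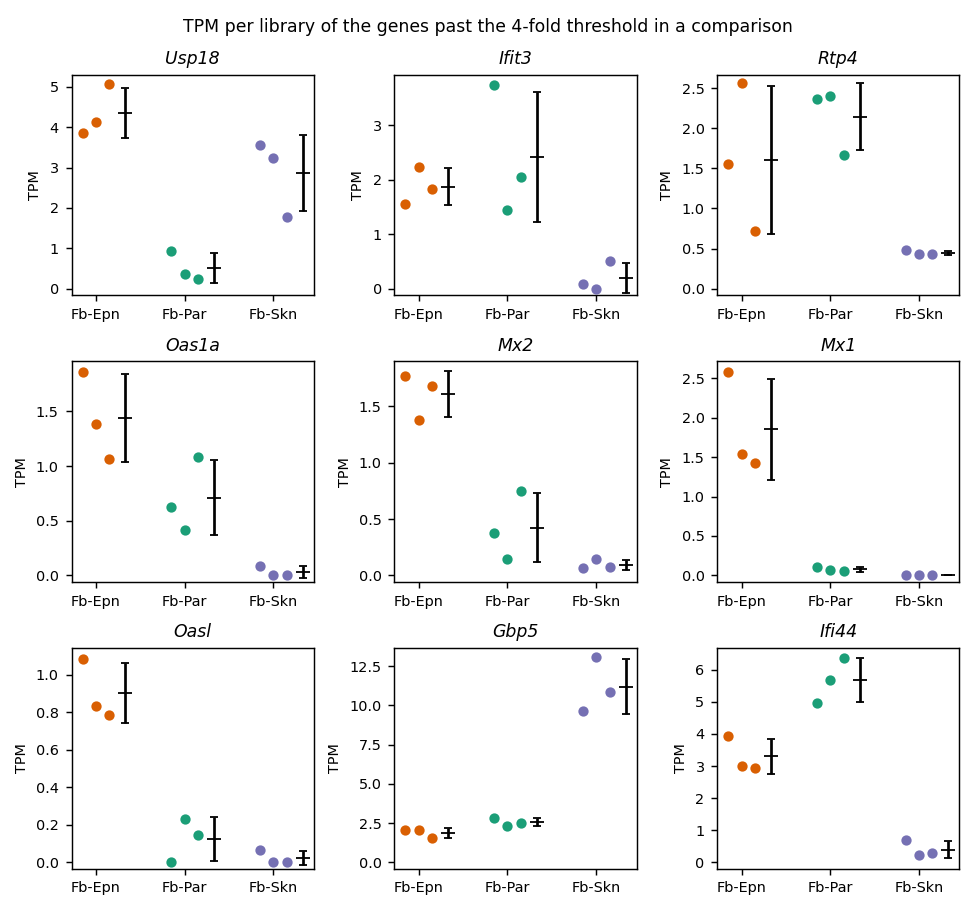
TPM per library of the 9 genes that were DE genes in at least 1 comparison, with each library as a coloured point and the mean ± SD of the 3 libraries in black beside them, on axes that include 0 and differ between panels. *Mx1*, *Mx2* and *Oasl* stand high in Fb-Epn, *Ifit3*, *Rtp4*, *Oas1a* and *Ifi44* in both nerve types, *Gbp5* in Fb-Skn, and *Usp18* is low in Fb-Par.

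The guanylate-binding proteins, GTPases that attack the vacuoles of intracellular pathogens, went in opposite directions. *Gbp2* was at 28.2, 26.4 and 26.9 TPM in Fb-Epn, 50.4, 48.4 and 45.1 TPM in Fb-Par and 11.6, 13.0 and 12.5 TPM in Fb-Skn. It was highest in Fb-Par, with log2 fold changes of 1.81 ± 0.07 (adjusted p = 3.0e-11) for Fb-Par and 1.00 ± 0.08 (adjusted p = 4.6e-08) for Fb-Epn against Fb-Skn and of -0.81 ± 0.07 (adjusted p = 1.3e-07) between the nerve types. *Gbp5*, which also promotes inflammasome assembly, was at 2.05, 2.04 and 1.52 TPM in Fb-Epn, 2.82, 2.31 and 2.51 TPM in Fb-Par and 9.62, 13.1 and 10.9 TPM in Fb-Skn. Here skin stood apart, and the nerve types were lower by 6.54-fold (-2.71 ± 0.18, adjusted p = 7.8e-09) and 4.84-fold (-2.28 ± 0.17, adjusted p = 3.4e-08). Both genes lie on the plus strand of chromosome 2, 79548 bases apart with *Gbp4* and *Gbp7* between them in rn6, and each promoter shown above holds GAAANNGAA. *Gbp4* was at 0.939 to 1.59, 1.74 to 2.01 and 0 to 0.240 TPM, the order of *Gbp2*.

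Of the ubiquitin-like, ubiquitin ligase and ADP-ribosylation genes, those of the Parp9 and Dtx3l complex, which modifies histones and viral proteins, and their relative *Parp14* were highest in Fb-Par. *Dtx3l* was at 3.12, 2.97 and 2.40 TPM in Fb-Epn, 5.60, 4.11 and 5.42 TPM in Fb-Par and 1.68, 2.05 and 2.25 TPM in Fb-Skn, and Fb-Par was above Fb-Skn (1.19 ± 0.18, adjusted p = 4.4e-05) and Fb-Epn below Fb-Par (-0.82 ± 0.17, adjusted p = 9.7e-04). *Parp9*, whose start lies 1128 bases from that of *Dtx3l* on the other strand in rn6, was at 19.7 to 21.6, 24.0 to 28.2 and 13.0 to 18.1 TPM and was called in Fb-Par against Fb-Skn (0.59 ± 0.11, adjusted p = 3.7e-04). *Parp14* was called in all 3 comparisons, with 0.80 ± 0.10 and 1.19 ± 0.10 over Fb-Skn and -0.38 ± 0.09 between the nerve types. The call between the nerve types was lost without Fb-Epn replicate 1 (adjusted p = 0.0149) or Fb-Par replicate 2 (0.0124), and on the TPM scale. *Herc6*, the rodent ligase that attaches Isg15, was called in Fb-Par against Fb-Skn (1.14 ± 0.29, adjusted p = 0.0040). This was lost without Fb-Par replicate 1 or 3 or Fb-Skn replicate 1 or 3 (adjusted p = 0.0109 to 0.0249). *Isg15*, the ubiquitin-like modifier itself and a common readout of interferon exposure, was at 3.33, 5.63 and 4.64 TPM in Fb-Epn, 2.78, 2.57 and 3.35 TPM in Fb-Par and 3.35, 3.04 and 3.49 TPM in Fb-Skn. These overlapped, and it was not called (adjusted p = 0.34, 0.064 and 0.35), nor was *Trim25*, the ligase that activates RIG-I, at 14.7 to 21.2 TPM.

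Of the other induced genes, *Ifi27*, which encodes a mitochondrial and nuclear membrane protein, was at 318, 309 and 303 TPM in Fb-Epn, 415, 430 and 428 TPM in Fb-Par and 472, 469 and 463 TPM in Fb-Skn. The abundant genes *Ifi27* and *Ifitm3* thus had reversed orders of the types. Its log2 fold changes were -0.73 ± 0.04 (adjusted p = 8.7e-10) and -0.29 ± 0.04 (adjusted p = 1.6e-05) against Fb-Skn and -0.44 ± 0.04 (adjusted p = 2.9e-07) between the nerve types. *Ifi44*, of unsettled function, was at 3.94, 3.00 and 2.95 TPM in Fb-Epn, 4.97, 5.68 and 6.35 TPM in Fb-Par and 0.688, 0.215 and 0.284 TPM in Fb-Skn. It separated nerve from skin by 2.85 ± 0.34 (7.22-fold, adjusted p = 5.0e-06) for Fb-Epn and 3.62 ± 0.32 (12.3-fold, adjusted p = 2.4e-07) for Fb-Par, whereas the nerve types were not called apart (-0.77 ± 0.24, adjusted p = 0.016). *Ifi35* and *Xaf1* were at 13.4 to 23.4 and 5.60 to 11.6 TPM and were not called. On the TPM scale, with the shift of all genes given above, *Ifi35* was called in Fb-Par against Fb-Skn (limma, adjusted p = 0.0034).

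Genes of the pathway outside the 43 were taken from lists fixed by name. Of the JAK-STAT, sensing and regulator genes, 28 of 32 used were tested, with 13 higher and 3 lower for Fb-Epn against Fb-Skn, 11 higher and 5 lower for Fb-Epn against Fb-Par, and 13 higher and 4 lower for Fb-Par against Fb-Skn. The shares called were 57.1%, 57.1% and 60.7%, where 43.9%, 38.8% and 45.6% of all genes were. The feedback inhibitor *Socs3*, best known downstream of Stat3, was at 161 to 173 TPM in Fb-Epn, 35.9 to 43.2 TPM in Fb-Par and 16.4 to 20.2 TPM in Fb-Skn, and was higher in Fb-Epn by 3.05 ± 0.09 over Fb-Skn (adjusted p = 1.2e-12) and 2.11 ± 0.08 over Fb-Par (adjusted p = 2.7e-11). *Tlr7*, an endosomal receptor for single-stranded RNA, and *Ptpn6*, a phosphatase of blood cells, also led these lists, with 4.33 ± 0.42 and 3.23 ± 0.39 in Fb-Epn over Fb-Skn, 1.54 ± 0.30 and 1.52 ± 0.32 in Fb-Epn over Fb-Par, and 2.78 ± 0.48 and 1.71 ± 0.42 in Fb-Par over Fb-Skn. *Tlr4*, the receptor for lipopolysaccharide, was the next in Fb-Par over Fb-Skn (1.20 ± 0.10). *Tlr7* and *Ptpn6* followed the order of the summed leukocyte markers given above.

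Of further interferon-induced genes, 36 of 42 in the matrix were tested, with 15 higher and 1 lower for Fb-Epn against Fb-Skn, 7 higher and 2 lower for Fb-Epn against Fb-Par, and 14 higher and 1 lower for Fb-Par against Fb-Skn. In this order, 16, 9 and 15 of 36 were called (44.4%, 25% and 41.7%), where 43.9%, 38.8% and 45.6% of all genes were. *Gbp4*, *Ifitm1* and *Oasl2* led both comparisons with skin, by 3.39 ± 0.59, 2.96 ± 0.07 and 2.49 ± 0.43 for Fb-Epn and by 3.97 ± 0.56, 2.51 ± 0.07 and 2.64 ± 0.43 for Fb-Par. *Ifitm1*, a relative of *Ifitm3*, was at 321 to 341 TPM in Fb-Epn, 233 to 256 TPM in Fb-Par and 36.2 to 41.8 TPM in Fb-Skn. Between the nerve types *Ifi47* (1.30 ± 0.28) and *Helz2* (1.11 ± 0.19) were higher in Fb-Epn and *Tdrd7* was lower (-0.76 ± 0.09). The chemokine *Cxcl10*, a widely used readout of interferon gamma, did not pass the filter and had 38 counts over the Fb-Epn libraries, 5 in Fb-Par and 1 in Fb-Skn.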

How the data were processed

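Cultured fibroblasts were measured by poly(A), directional RNA-seq with paired ends of 150 bp. Per the labels and methods, reads were trimmed with Trimmomatic 0.38 and aligned with HISAT2 2.1.0 to rn6, and the submitters' processing notes name featureCounts 1.6.3. The annotation release and strand setting are not given in the sources used here. The authors deposited raw counts per gene and TPM for each library. The authors also deposited FPKM, not used here.

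Groups and replicate numbers were taken from the sample labels. Counts of all 9 libraries were fitted in 1 model with edgeR 4.0.16 (R 4.3.3; TMM factors 0.955 to 1.03, default filter by expression, quasi-likelihood F test), with the 3 comparisons as contrasts. Within each comparison, the Benjamini-Hochberg adjustment ran over all 13273 genes tested. SE is the log2 fold change divided by the square root of F. The common coefficient of variation was 8.25%. Replicates differed by more than sampling noise (chi-square per degree of freedom 3.31 to 5.48). Fold changes in the text are on edgeR's scale and can differ from ratios of TPM. Where a group held 0 counts, the fold was taken against 3 counts over the group, and with 1 to 3 counts an exact 95% interval of the ratio is given.

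The members and lists were chosen with earlier results of these data known. A gene of the JAK-STAT list and a Schwann cell marker are not reported here and entered no count or sum of those lists. Full values were given for DE genes, the receptors and the 3 most abundant genes, and every other gene by role. Alternatives were other scaling, DESeq2 1.42.0, limma 3.58.1 on log2(TPM + 1) and log2(TPM + 0.1), other filters, a threshold of 0.05, 6 libraries, a replicate block and leaving out each library.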

Additional observations from a re-analysis of the deposited data

How the results depend on the processing

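No called value changed sign in any of the 19 other fits that tested it. Some called genes were left untested by a filter in at least 1 fit, 6 in Fb-Epn against Fb-Skn, 4 in Fb-Epn against Fb-Par and 6 in Fb-Par against Fb-Skn. Of the called genes tested in every fit, 11 of 14 were called in each (not *Ddx58*, *Eif2ak2* and *Ifit2*) in Fb-Epn against Fb-Skn, 6 of 8 (not *Irf7* and *Parp14*) in Fb-Epn against Fb-Par and 13 of 17 (not *Ddx58*, *Herc6*, *Ifngr1* and *Irf1*) in Fb-Par against Fb-Skn. Of the others, *Mx2* and *Oasl* in Fb-Epn against Fb-Par and *Cmpk2* and *Oas1a* in Fb-Par against Fb-Skn also lost their call in a fit that tested them. In the order of the comparisons, DE genes numbered 1, 0 and 1 with limma on log2(TPM + 1), where the pseudocount shrinks low genes, and 2, 0 and 1 with at least 10 counts asked of every library, where 28 genes were tested. At an adjusted p under 0.05, 21 interferon genes were called in Fb-Epn against Fb-Par. The share of all genes at 0.05 is not given here, so this shows only that the count depends on the threshold. Leaving out 1 library gave 17 to 21, 8 to 14 and 19 to 23 called genes and 7 to 9, 2 to 4 and 5 to 6 DE genes. The lowest counts in Fb-Epn against Fb-Par were 8 called genes, without Fb-Epn replicate 1, and 2 DE genes, without Fb-Epn replicate 1 or Fb-Par replicate 1. The labels do not say whether equal replicate numbers share a rat or batch. Deviations of libraries with equal numbers correlated at -0.080 to 0.020, which cannot settle this with 3 libraries per type. With a replicate block, 19, 12 and 22 genes were called and 7, 3 and 6 were DE genes, without *Ddx58* in Fb-Epn against Fb-Skn and *Cmpk2* in Fb-Par against Fb-Skn. DESeq2 also called *Isg20* in Fb-Epn against Fb-Skn (adjusted p = 0.0062) and *Ifi44* and *Parp9* in Fb-Epn against Fb-Par (0.0097 and 0.0079). Depth limits the genes with few counts in skin.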
